A study of Mus musculus with 24 samples.

Results

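The 10 genes described here, Sox4, Sox9, Pax2, Pax8, Vcam1, Cd24a, Cd44, Prom1, Tnfrsf12a and Vim, are used in kidney research as markers of tubule cells that lose mature features after injury and of cells in repair. They were chosen by name, as a list of genes of dedifferentiated or failed-repair tubule cells, and the rule uses no measured value, although the list was drawn up with earlier results of these data known. They are 10 of 55416 gene identifiers in the count table, and all 10 were among the 18005 genes with enough counts to be tested. Poly(A) RNA was sequenced from dissected inner medulla, the innermost zone of the kidney, of C57BL/6 mice, an inbred laboratory strain, aged 9 to 10 weeks. Every mouse had received a single intraperitoneal injection in 100 µl, of saline alone or of saline with cisplatin at 15 mg/kg, and tissue was taken 72 h later. Cisplatin is a platinum drug against tumours that injures kidney tubules, so the comparisons ask how inner medullary RNA differs after this injury in each sex. Males gave 6 saline and 6 cisplatin libraries and females 7 and 5, and the labels give no genetic modification in any group.

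Injured tubule epithelium can lose transporters, take up features of the embryonic kidney, spread over bare basement membrane and then redifferentiate. PAX2 and PAX8 are paired-box transcription factors that specify the kidney lineage, and the collecting duct and other tubules keep expressing them in the adult. SOX4 and SOX9 are SRY-box transcription factors of developing organs, and SOX9 is known as a gene that surviving tubule cells switch on after injury. CD24 and prominin-1 (CD133, from Prom1) are surface molecules used to mark scattered progenitor-like tubule cells. VCAM1 and CD44 are adhesion molecules, TNFRSF12A (Fn14) is the receptor of the cytokine TWEAK, and vimentin is the intermediate filament protein of mesenchymal cells. Several of these genes are also used by other cells: Vim by fibroblasts, endothelium and leukocytes, Vcam1 by activated endothelium, and Cd44 by leukocytes.

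Library totals ranged from 18084242 to 27279102 counts, and levels are given as CPM, a gene's counts relative to its library total, with the totals scaled by TMM, a normalization for library composition. Aqp2, the water channel of collecting duct principal cells, stood at 6558 ± 770 CPM in male saline (SD, n = 6), and no gene of the principal cell marker list was at 0 in all libraries. Markers of the thick ascending limb, which lies outside the inner medulla, were present and uneven: their 6 genes summed to between 937 and 13922 CPM over the saline libraries. The 4 lowest sums over all libraries were in female saline 6 (937 CPM), male cisplatin 5 (1634 CPM), male saline 2 (2588 CPM) and female saline 1 (2735 CPM). Male cisplatin 5 also had the highest sum of 9 urothelium markers (2023 CPM, against 538 to 1151 CPM in the other 23 libraries). Male cisplatin 5, female saline 1 and female saline 6, a choice taken from an earlier analysis of these data, were left out together in an alternative fit. Male saline 2 was kept in that fit and left out in another on its own. Lcn2, the injury marker lipocalin-2, was at 57.8 to 67.3 CPM in male saline and 213 to 6589 CPM in male cisplatin, with male cisplatin 6 the lowest of the treated males. In females it was at 49.4 to 129 CPM under saline and 111 to 3529 CPM under cisplatin, and female cisplatin 2 and 3 (111 and 122 CPM) lay inside the saline range. The labels do not say that each library is a separate mouse, so each p-value reflects only the spread among these libraries, which may be technical. In whole tissue a lower level can come from fewer cells of a type or from less RNA per cell, and the 2 cannot be told apart here.

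Promoter sequences were matched for 7 of the 10 genes (not for Sox9, Vcam1 and Cd24a) in RefSeq, build GRCm38.p6. On both strands, from 250 bases before to 50 bases after each start, 5 motifs were searched: NF-kB (GGG, any 5 bases, then CC), AP-1 TGANTCA, STAT TTCNNNGAA, TEAD GGAATG and SOX ACAAAG. The 7 genes have 10 windows, 3 at Pax2 and 2 at Prom1, so these 2 genes had more chances of a match. The NF-kB letters were found in 7 of the 10 windows (of Pax2, Cd44, Prom1, Tnfrsf12a and Vim), some in overlapping matches, and 50.8% of all 32851 windows hold them. The AP-1 letters were in 2 windows, both of Prom1 (7.81% of all windows), and the SOX letters in 2 of Pax2 (18.7%). The STAT letters were in 1 window of Pax2 (8.3%) and the TEAD letters in that of Sox4 (14.7%). These SOX and STAT matches of Pax2 are in 2 windows whose starts lie before its start in GENCODE M21. The bases after those 2 starts matched none of its GENCODE M21 transcripts. None of the 5 was found at Pax8. The 250 bases before the start are printed for 3 genes, with matches in capitals. Tnfrsf12a had the larger change of the pair that passed the test, and Pax8 had no match. For Prom1 the printed window is at a RefSeq start inside the gene (chr5:43993620-44102032), and whether it acts as a promoter was not tested. Its other window, chr5:44101737-44101986, lies nearer the gene's GENCODE M21 start and is not printed. Each of the 2 windows holds NF-kB and AP-1 letters. Tnfrsf12a is at chr17:23677450-23677699, Prom1 at chr5:44094769-44095018 and Pax8 at chr2:24475600-24475849, all on the minus strand and read 5′ to 3′ along the gene.
Tnfrsf12a: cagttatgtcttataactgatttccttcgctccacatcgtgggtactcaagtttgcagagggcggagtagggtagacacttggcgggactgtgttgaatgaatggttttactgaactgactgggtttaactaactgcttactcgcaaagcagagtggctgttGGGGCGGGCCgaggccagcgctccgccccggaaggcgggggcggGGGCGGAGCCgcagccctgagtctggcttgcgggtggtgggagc
Prom1: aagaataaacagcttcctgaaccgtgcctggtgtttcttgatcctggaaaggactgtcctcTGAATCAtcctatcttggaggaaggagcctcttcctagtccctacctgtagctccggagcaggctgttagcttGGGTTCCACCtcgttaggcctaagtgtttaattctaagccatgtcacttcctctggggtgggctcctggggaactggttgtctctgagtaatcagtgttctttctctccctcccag
Pax8: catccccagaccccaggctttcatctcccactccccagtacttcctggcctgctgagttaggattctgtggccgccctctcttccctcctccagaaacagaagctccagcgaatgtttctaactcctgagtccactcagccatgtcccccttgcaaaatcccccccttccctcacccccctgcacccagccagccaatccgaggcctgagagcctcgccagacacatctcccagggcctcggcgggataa
The 2 matches at Tnfrsf12a are GGGGCGGGCC and GGGCGGAGCC, both in GC-rich sequence. Those in the printed window of Prom1 are TGAATCA and GGGTTCCACC, and its other window holds TGACTCA and GGGCTGGACC. A match is a run of letters and was not tested as a binding site.

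Compared per kilobase of exon, the 10 genes spanned a wide range of levels in male saline. Cd24a was the highest at 367 ± 35.8 CPM per kilobase (SD, n = 6), followed by Pax2 at 77.2 ± 9.69 and Pax8 at 47.4 ± 5.52, with no overlap between libraries of neighbouring genes. Vim (23.8 ± 2.97), Sox4 (18 ± 4.21), Prom1 (16.6 ± 2.87) and Tnfrsf12a (9.39 ± 1.46) came next, and each of these overlapped its neighbour. Vcam1 (0.654 ± 0.179), Cd44 (0.169 ± 0.036) and Sox9 (0.0748 ± 0.0114) were the lowest and did not overlap each other. Sox9 rested on 6 to 8 counts per male saline library and Cd44 on 17 to 37, so their values carry large counting error. Under cisplatin Prom1 stood above Vim in both sexes, with overlapping libraries. In female saline the order was that of male saline, with Pax2 overlapping Pax8 and Cd44 overlapping Sox9.

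In males, Cd24a and Tnfrsf12a rose after cisplatin: Cd24a by 1.38-fold and Tnfrsf12a by 2.10-fold. These were 2 of the 10 genes past an adjusted p of 0.05 in edgeR's quasi-likelihood test, both higher and 0 lower, where 20.7% of all tested genes passed (13.2% higher and 7.54% lower). Prom1, Sox9 and Vcam1 had higher means with adjusted p-values above the threshold, and Pax2 had a lower mean. In females, 0 of the 10 passed the edgeR test, where 0.272% of all tested genes passed (0.2% higher and 0.0722% lower). At an unadjusted p under 0.05 there were 5 genes in males and 5 in females, where 36% and 14.8% of all tested genes had one. DESeq2 called 3 of the 10 in males and 0 in females, beside 24.2% and 1.34% of all tested genes. The male share of the 10 genes that passed was thus near that of all tested genes in both tools. The median log2 fold change of the 10 genes was 0.35 in males and 0.12 in females, beside 0.02 and 0.01 over all tested genes. No gene of the 10 had cisplatin and saline libraries that did not overlap, in either sex, where 3.45% of tested genes were separated upward and 2.48% downward in males, and 0.511% and 0.339% in females.

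**Figure D1:**
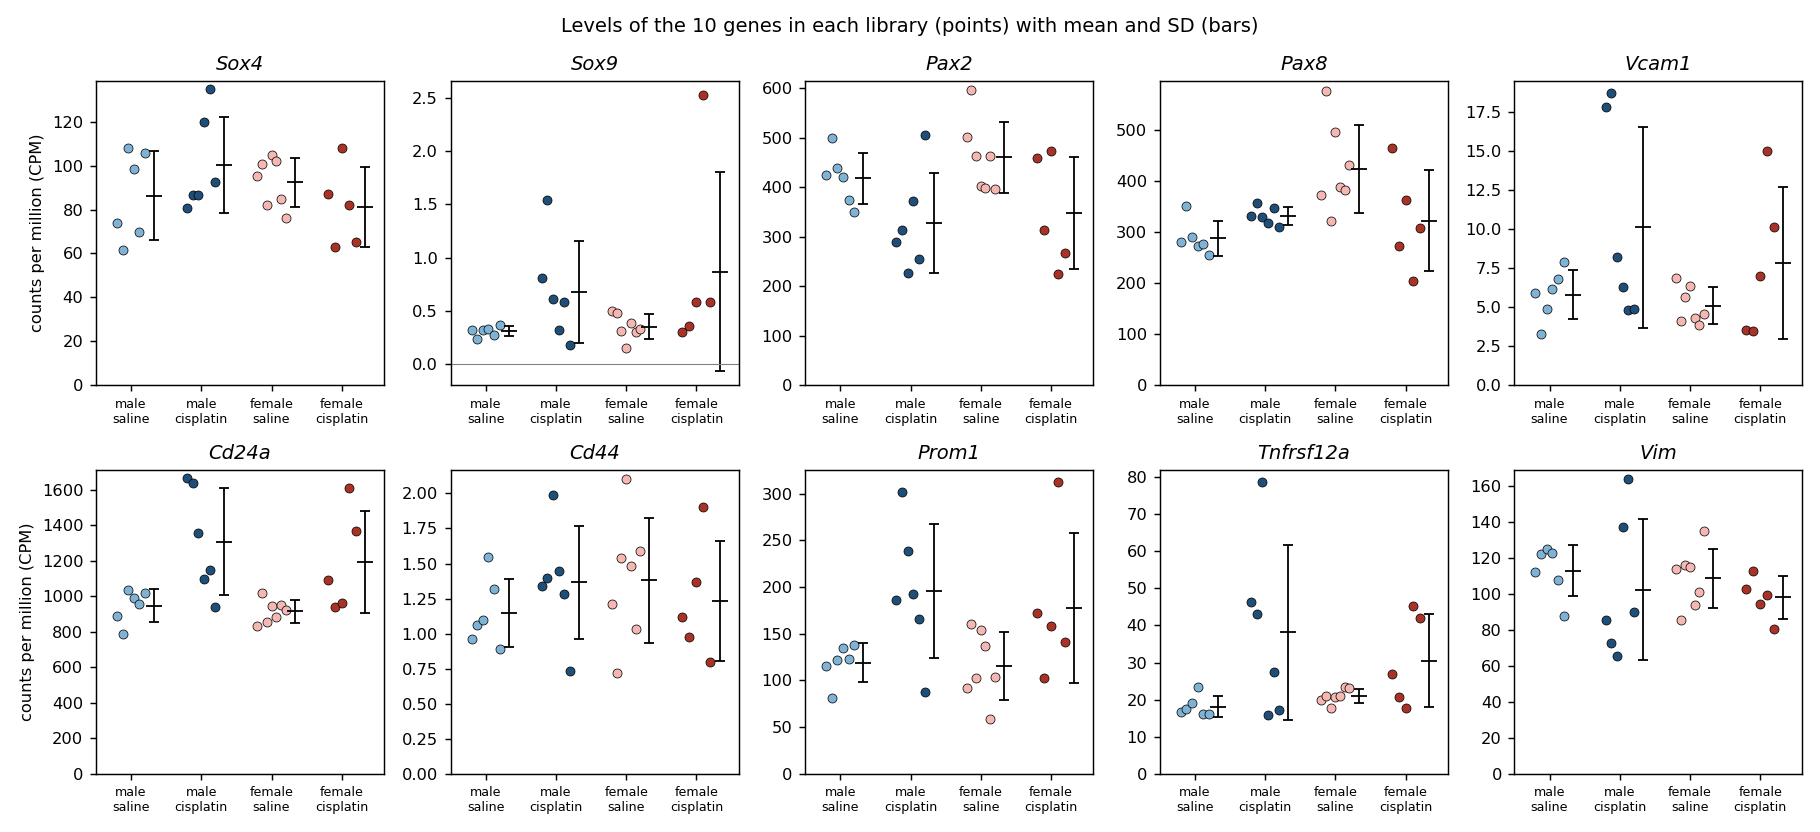
Level of each of the 10 genes in every library (points, in CPM, axes starting at 0 except for Sox9) with the group mean and SD (bars) for the 4 groups. Cd24a and Tnfrsf12a have several cisplatin libraries above every saline library in both sexes, and the single high Sox9 value of 2.53 CPM, in female cisplatin 4, takes the SD bar below 0.

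The male count depended on single libraries. Without male cisplatin 6, 4 of the 10 genes were higher (Sox9, Cd24a, Prom1 and Tnfrsf12a) and 1 lower (Pax2), and the share of all tested genes that passed also rose, to 29.3% (17.3% higher and 12% lower). Without female cisplatin 4, which enters through the shared estimate of spread, 4 were higher, beside 13.7% of all tested genes. The count was 1 without any single library of male cisplatin 1 to 3, or without male saline 2 (14.2% to 18.6% of all tested genes). It was 0 (11.2% of all tested genes) when the mean log2 CPM of 22 tubule markers, the tubule score, entered as a covariate. The score uses the proximal tubule and thick ascending limb lists, and not those of the collecting duct or thin limb. It was measured after treatment, and its lowest male values were in male cisplatin 1 and 2 (3.229 and 3.379). A fit with the score can therefore also remove part of a cisplatin effect, and a call lost with it does not separate composition from treatment.

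The paired-box genes Pax2 (ENSMUSG00000004231, chr19:44756045-44837871 in GRCm38, GENCODE M21) and Pax8 (ENSMUSG00000026976, chr2:24420560-24475599) were both abundant. Pax2 ranged from 349 to 499 CPM in male saline with a median of 423 CPM, and from 227 to 506 CPM in male cisplatin with a median of 302 CPM. In females it ranged from 397 to 596 CPM under saline (median 463), and the cisplatin libraries had 459, 314, 474, 224 and 267 CPM. Thus 4 of 6 male and 3 of 5 female cisplatin libraries lay below every saline library of their sex, while male cisplatin 6 was above all male saline libraries. The log2 fold change was -0.35 ± 0.18 in males (SE, edgeR adjusted p = 0.168) and -0.41 ± 0.19 in females (edgeR adjusted p = 0.318), and neither passed. Without male cisplatin 6 the male value was -0.52, with an edgeR adjusted p of 0.0255 (range over 31 alternatives 0.0255 to 0.346).

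Pax8 had another pattern. It ranged from 254 to 351 CPM in male saline (median 278) and from 309 to 356 CPM in male cisplatin (median 330), so the treated males were tightly grouped and all lay above the saline mean. Female saline libraries ranged from 321 to 577 CPM (median 388), and the female cisplatin libraries had 465, 272, 363, 203 and 307 CPM. In females 3 of 5 treated libraries lay below every saline library and 0 above. In males the log2 fold change was 0.21 ± 0.15 (edgeR adjusted p = 0.328), and it was -0.40 ± 0.15 in females (edgeR adjusted p = 0.255). The difference between the sexes in response was -0.60 ± 0.21 (unadjusted p = 0.00923, edgeR adjusted p = 0.943), which did not pass. This was 1 of the 10 genes at an unadjusted p under 0.05 in the interaction (4.29% of all tested genes). In the interaction 0 of the 10 and 0% of all tested genes passed by edgeR, and DESeq2 also called 0 of the 10 and 0% of all.

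Under saline, Pax8 was 424 ± 86.4 CPM in females (SD, n = 7) against 287 ± 33.4 CPM in males (n = 6). The female minus male log2 difference was 0.56 ± 0.15 (unadjusted p = 0.000717, edgeR adjusted p = 0.244). Of the 10 genes, 0 passed for sex under saline by edgeR (0.189% of all tested genes passed, 0.0611% higher and 0.128% lower). In edgeR 1 of the 10, Pax8, had an unadjusted p under 0.05, against 3.22% of all tested genes. DESeq2 called 0 of the 10 for sex under saline, beside 0.322% of all tested genes. Under cisplatin the Pax8 difference was -0.04 ± 0.16, and 0 of the 10 passed by edgeR (0.156% of all tested genes passed, 0.106% higher and 0.05% lower). In edgeR 0 of the 10 had an unadjusted p under 0.05, against 9.72% of all tested genes. DESeq2 called 0 of the 10 for sex under cisplatin, beside 0.706% of all tested genes. The Pax8 difference under cisplatin changed sign without female cisplatin 2 (0.013) or female cisplatin 4 (0.085), and was -0.21 without female cisplatin 1. An antisense-strand transcript, Gm13415, overlaps exons of Pax8. Its 1294 counts over all libraries stand beside 188508 for Pax8, and without the strand setting their reads cannot be told apart.

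The ratio of Pax8 to Pax2, per kilobase, put the pair on one scale. This ratio was chosen after the values were seen and was not tested. It ranged from 0.576 to 0.659 in male saline (0.615 ± 0.0347, SD, n = 6) and from 0.546 to 1.30 in male cisplatin (0.975 ± 0.281, n = 6). Male cisplatin 1 to 5 all lay above the saline males, and male cisplatin 6 lay below them. In females the ratio was 0.832 ± 0.172 under saline (n = 7) and 0.839 ± 0.132 under cisplatin (n = 5), with overlapping libraries.

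**Figure D2:**
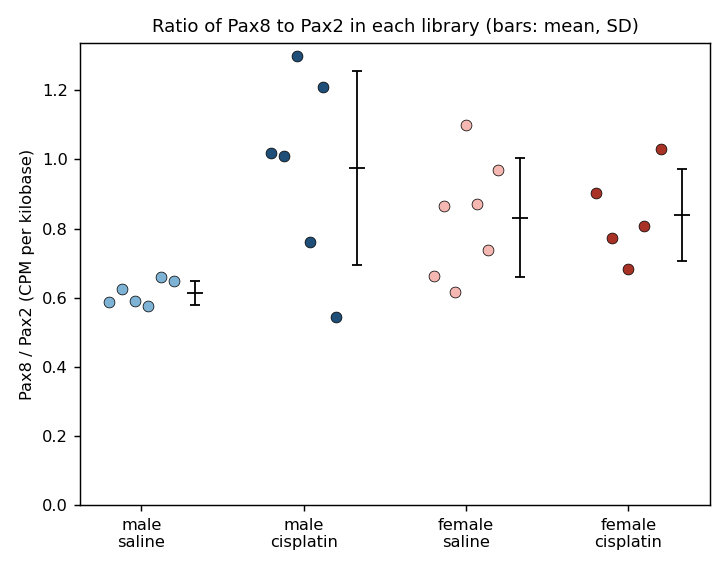
Ratio of Pax8 to Pax2 level, each in CPM per kilobase of exon, in every library (points) with group mean and SD (bars) for the 4 groups. Male saline libraries sit between 0.576 and 0.659, and 5 of 6 male cisplatin libraries are higher, up to 1.30, while the female groups overlap.

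Sox9 (ENSMUSG00000000567, chr11:112782224-112787760) was barely above detection, at 6 to 8 counts per male saline library and 4 to 12 per female saline library. Its levels ranged from 0.235 to 0.367 CPM in male saline (median 0.323) and from 0.182 to 1.54 CPM in male cisplatin (median 0.598). Female saline libraries had 0.152 to 0.503 CPM (median 0.327), and the female cisplatin libraries had 0.302, 0.355, 0.580, 2.53 and 0.585 CPM. Of the treated libraries, 4 of 6 males and 3 of 5 females exceeded every saline library of their sex, and male cisplatin 6 was below the saline males. The log2 fold change was 1.10 ± 0.50 in males (edgeR adjusted p = 0.116) and 1.30 ± 0.48 in females (edgeR adjusted p = 0.240), and neither passed. Both values rested on single libraries. The male value was 0.66 (edgeR adjusted p = 0.364) without male cisplatin 2, with 33 counts, and the female value was 0.38 (0.872) without female cisplatin 4, with 52 counts. The difference between the sexes (0.20 ± 0.71) became 0.64 and -0.72 without these libraries. In males Sox9 passed without male cisplatin 6 (edgeR adjusted p = 0.0462) or female cisplatin 4 (0.0469), in a range of 0.0462 to 0.498 over 30 alternatives. No male saline library held the minimum count of 10, and of the female saline libraries only 1 and 2 did (12 and 10 counts). Sox9 was thus kept for testing mainly through the cisplatin libraries where it was high, so these passes are not separate evidence of a rise.

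Sox4 (ENSMUSG00000076431, chr13:28948919-28953713) was well expressed, and no difference between groups passed. Male saline libraries ranged from 61.7 to 108 CPM (median 86.2) and male cisplatin libraries from 80.8 to 135 CPM (median 89.7). Female saline libraries ranged from 76.3 to 105 CPM (median 95.4), and female cisplatin libraries had 87.0, 62.9, 108, 82.1 and 65.4 CPM. The groups overlapped in both sexes, with male cisplatin 4 and 5 above the saline males and female cisplatin 2 and 5 below the saline females. The log2 fold changes were 0.22 ± 0.16 in males (edgeR adjusted p = 0.328) and -0.19 ± 0.16 in females (edgeR adjusted p = 0.593), and their difference of -0.40 ± 0.22 did not pass (edgeR adjusted p = 0.943). The male value was 0.10 without male cisplatin 5, and the female value ranged from -0.31 without female cisplatin 3 to -0.11 without female cisplatin 2. A non-coding transcript on the opposite strand, Gm26735, overlaps Sox4 in the annotation, was not analysed here, and its reads could not be told apart without strand.

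Cd24a (ENSMUSG00000047139, chr10:43578284-43584265), which encodes a small glycosylated surface protein, was the most abundant of the 10 genes. It ranged from 790 to 1034 CPM in male saline (median 972) and from 937 to 1669 CPM in male cisplatin (median 1251). Of the treated males, 5 of 6 were above every saline male, and male cisplatin 6 (937 CPM) was inside the saline range. This was a log2 fold change of 0.47 ± 0.14 (edgeR adjusted p = 0.0231). Female saline libraries had 834 to 1018 CPM (median 920), and the female cisplatin libraries had 1092, 938, 963, 1608 and 1369 CPM. Of the treated females, 3 of 5 were above every saline female, and all 5 were above the saline mean, at a log2 fold change of 0.38 ± 0.14 (edgeR adjusted p = 0.240). Without female cisplatin 4 it was 0.25 (0.75). Mouse genomes hold processed copies of Cd24a, and how reads shared with them were counted is not known here.

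The male Cd24a call did not hold under every setting. Its edgeR adjusted p was 0.0566 with male libraries alone, 0.0516 with the replicate number as a block, and 0.154 with the tubule score in the model. It was 0.0529 without male saline 2, 0.0579 without male cisplatin 1 and 0.0645 without male cisplatin 2, and over all 31 alternatives it ranged from 0.00509 to 0.154, passing in 25. The score itself ranged from 4.49 to 5.90 in male saline and from 3.23 to 5.55 in male cisplatin, with male cisplatin 1 and 2 (3.229 and 3.379), the highest for Cd24a, at its lowest values.

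Prom1 (ENSMUSG00000029086, chr5:43993620-44102032), the gene of the membrane-protrusion protein prominin-1, had male saline levels of 80.7 to 138 CPM (median 123) and male cisplatin levels of 87.7 to 302 CPM (median 190). As for Cd24a, 5 of the 6 treated males were above every saline male and male cisplatin 6 was not. Female saline libraries had 58.7 to 160 CPM (median 104), and female cisplatin libraries had 172, 103, 158, 313 and 141 CPM. Only 2 of 5 treated females were above the saline range, and the groups overlapped. In males the log2 fold change was 0.72 ± 0.26 (edgeR adjusted p = 0.0548), and it was 0.62 ± 0.26 in females (edgeR adjusted p = 0.282), and neither passed. The male value did pass in 6 of 31 alternatives: without male cisplatin 6 (edgeR adjusted p = 0.0116), female saline 6 (0.041), female cisplatin 2 (0.0473) or female cisplatin 4 (0.0328), without the 3 libraries of uneven composition (0.0488) and in DESeq2 (0.0355). The highest value was 0.151, without male cisplatin 2 (log2 fold change 0.55). The female value was 0.31 (edgeR adjusted p = 0.82) without female cisplatin 4. An antisense gene, Gm16401, shares exons with Prom1 and held 314 counts against 79431.

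The adhesion molecules Vcam1 (ENSMUSG00000027962, chr3:116109949-116129688) and Cd44 (ENSMUSG00000005087, chr2:102811141-102901665) were low. Vcam1 ranged from 3.26 to 7.87 CPM in male saline (median 6.02) and from 4.81 to 18.7 CPM in male cisplatin (median 7.25). In females it was at 3.84 to 6.87 CPM under saline (median 4.58), and 3.50, 3.46, 6.97, 15.0 and 10.1 CPM under cisplatin. The rise in group mean came from a few libraries: male cisplatin 1 and 2 (17.8 and 18.7 CPM) and female cisplatin 4 and 5 were high, and female cisplatin 1 and 2 were below every saline female. The log2 fold change was 0.80 ± 0.36 in males (edgeR adjusted p = 0.114) and 0.61 ± 0.36 in females (edgeR adjusted p = 0.432). Neither passed in any of 31 alternatives, and the female value was 0.24 without female cisplatin 4. Reads of Gm43109, an antisense gene with 6 counts in all, cannot be separated from Vcam1 by strand.

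Cd44 stayed between 0.716 and 2.10 CPM in all 24 libraries, on 15 to 55 counts each. It was at 1.15 ± 0.244 CPM in male saline, 1.36 ± 0.403 in male cisplatin, 1.38 ± 0.445 in female saline and 1.23 ± 0.427 in female cisplatin (SD, n = 6, 6, 7 and 5). The groups overlapped in both sexes. Log2 fold changes were 0.24 ± 0.27 in males (edgeR adjusted p = 0.536) and -0.17 ± 0.27 in females (edgeR adjusted p = 0.793), and neither passed. Leaving out single libraries gave 0.11 (without male cisplatin 3) to 0.37 (without male cisplatin 6) in males and -0.38 (without female cisplatin 4) to -0.04 (without female saline 4) in females.

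Tnfrsf12a (ENSMUSG00000023905, chr17:23675445-23677468), the TWEAK receptor gene whose promoter is printed above, had the larger fold change of the pair that passed. It ranged from 16.0 to 23.4 CPM in male saline (median 17.1) and from 15.8 to 78.8 CPM in male cisplatin (median 35.3). Male cisplatin 1, 2, 3 and 5 (46.4, 43.2, 78.8 and 27.5 CPM) lay above every saline male, whereas male cisplatin 4 and 6 (15.8 and 17.2 CPM) did not. This was a log2 fold change of 1.07 ± 0.29 (edgeR adjusted p = 0.0133). In females, saline libraries had 17.6 to 23.5 CPM (median 20.9), and cisplatin libraries had 26.8, 20.6, 17.8, 45.2 and 42.1 CPM. Of these, 3 of 5 were above the saline range, at a log2 fold change of 0.54 ± 0.29 (edgeR adjusted p = 0.382). The sexes differed in response by -0.53 ± 0.41 (edgeR adjusted p = 0.943), which did not pass. This difference was -0.18 without male cisplatin 3 and -0.71 without female cisplatin 4. In males the call held in 29 of 31 alternatives, with an edgeR adjusted p from 0.00241 to 0.0764. It was lost with the tubule score in the model (0.0764) and without male cisplatin 3 (log2 fold change 0.73, adjusted p = 0.0537).

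Vim (ENSMUSG00000026728, chr2:13573927-13582826) passed the test in neither sex. It ranged from 87.7 to 125 CPM in male saline (median 117) and from 65.3 to 164 CPM in male cisplatin (median 87.8), a spread of both signs. Male cisplatin 1, 2 and 3 (85.6, 72.5 and 65.3 CPM) were below every saline male, and male cisplatin 4 and 5 (137 and 164 CPM) were above. Female saline libraries had 85.4 to 135 CPM (median 114), and female cisplatin libraries had 103, 113, 94.6, 99.6 and 80.7 CPM. The log2 fold change was -0.14 ± 0.17 in males (edgeR adjusted p = 0.583) and -0.15 ± 0.17 in females (edgeR adjusted p = 0.719). The male value was 0.0046 with the tubule score in the model, -0.33 without male cisplatin 5 and -0.036 without male cisplatin 3, and the female value was -0.085 without female cisplatin 5.

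**Figure D3:**
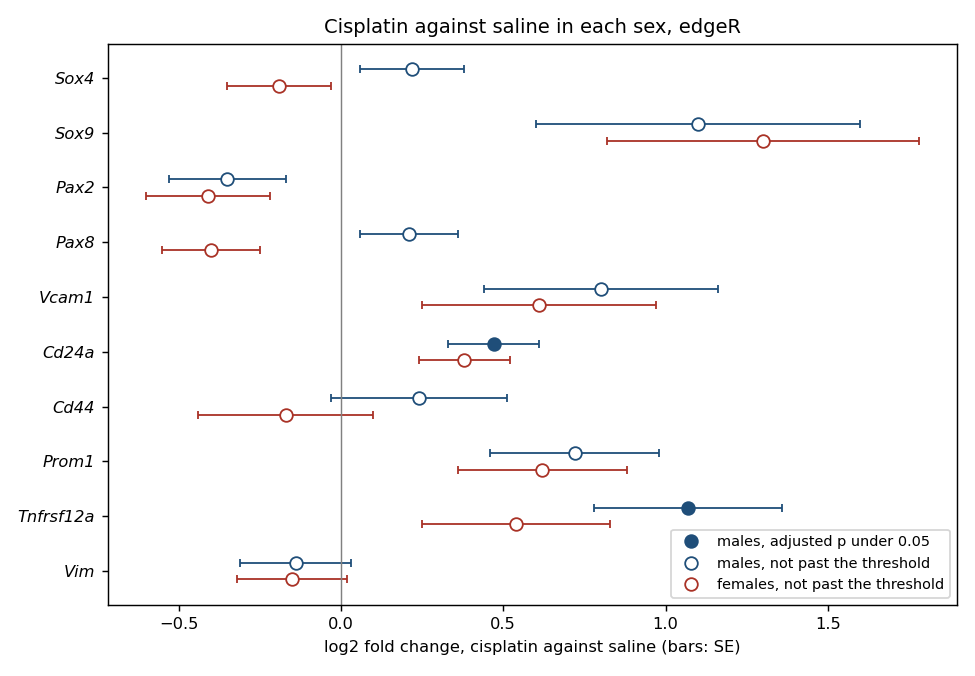
Log2 fold change of cisplatin against saline for each of the 10 genes in males (blue) and females (red), from edgeR, with bars of 1 SE. Filled points passed an adjusted p of 0.05, which in males were Cd24a (0.47) and Tnfrsf12a (1.07), and no female point passed.

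Markers of other cell types also differed between these libraries. Fibroblast and mural markers summed to 581 to 714 CPM in male saline and 142 to 504 CPM in male cisplatin, and 7 of 12 fell and 1 rose (median log2 fold change -0.96). Male cisplatin 1, 2 and 3, the lowest in Vim among males, had sums of 278, 175 and 142 CPM. Endothelial markers summed to 2380 to 2701 CPM in male saline and 953 to 2807 CPM in male cisplatin, and 4 of 10 fell. Of 10 tested macrophage and leukocyte markers, 2 rose and 1 fell, and their sum overlapped between groups (97.4 to 199 CPM against 135 to 250 CPM). Epithelial markers summed to 3858 to 4581 CPM in male saline and 4084 to 5743 CPM in male cisplatin, and 4 of 6 rose. Proximal tubule markers summed to 1915 to 2662 CPM and 1768 to 2905 CPM, and 0 of 16 passed; Aqp1, which thin limbs also express, held most of that sum. Of the thick ascending limb markers 1 of 6 fell (Egf). Of principal cell markers 1 of 12 rose and 2 fell, and 1 of 6 thin limb and 2 of 9 urothelium markers rose. Beside these male counts, 13.2% of all tested genes rose and 7.54% fell. In females 0 markers of any of these lists passed by edgeR, where 0.272% of all tested genes did. No marker of any of these lists was at 0 in all libraries, and their part in the values of the 10 genes was not tested beyond the tubule score covariate.

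The number of the 10 genes outside the saline range differed between treated libraries. The share of all tested genes outside that range in each library was not counted, so these numbers have no background to be set against. Male cisplatin 1, 2, 3 and 5 each had 5 or 6 of the 10 above the range of the saline males, and female cisplatin 4 and 5 had 5 and 4 above that of the saline females. Male cisplatin 4 had 4 above (Sox4, Cd24a, Prom1 and Vim), female cisplatin 1 and 3 had 3 each, male cisplatin 6 had 1 (Pax2) and female cisplatin 2 had 0. The same 5 libraries, male cisplatin 1, 2 and 3 and female cisplatin 4 and 5, held the highest values of Cd24a, Vcam1 and Tnfrsf12a. Pax2 had its 5 lowest values in male cisplatin 1, 3 and 5 and female cisplatin 4 and 5. Lcn2 was at 4021, 6589, 2578, 1265, 2470 and 213 CPM in male cisplatin 1 to 6, and at 546, 111, 122, 3529 and 2097 CPM in female cisplatin 1 to 5.

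**Figure D4:**
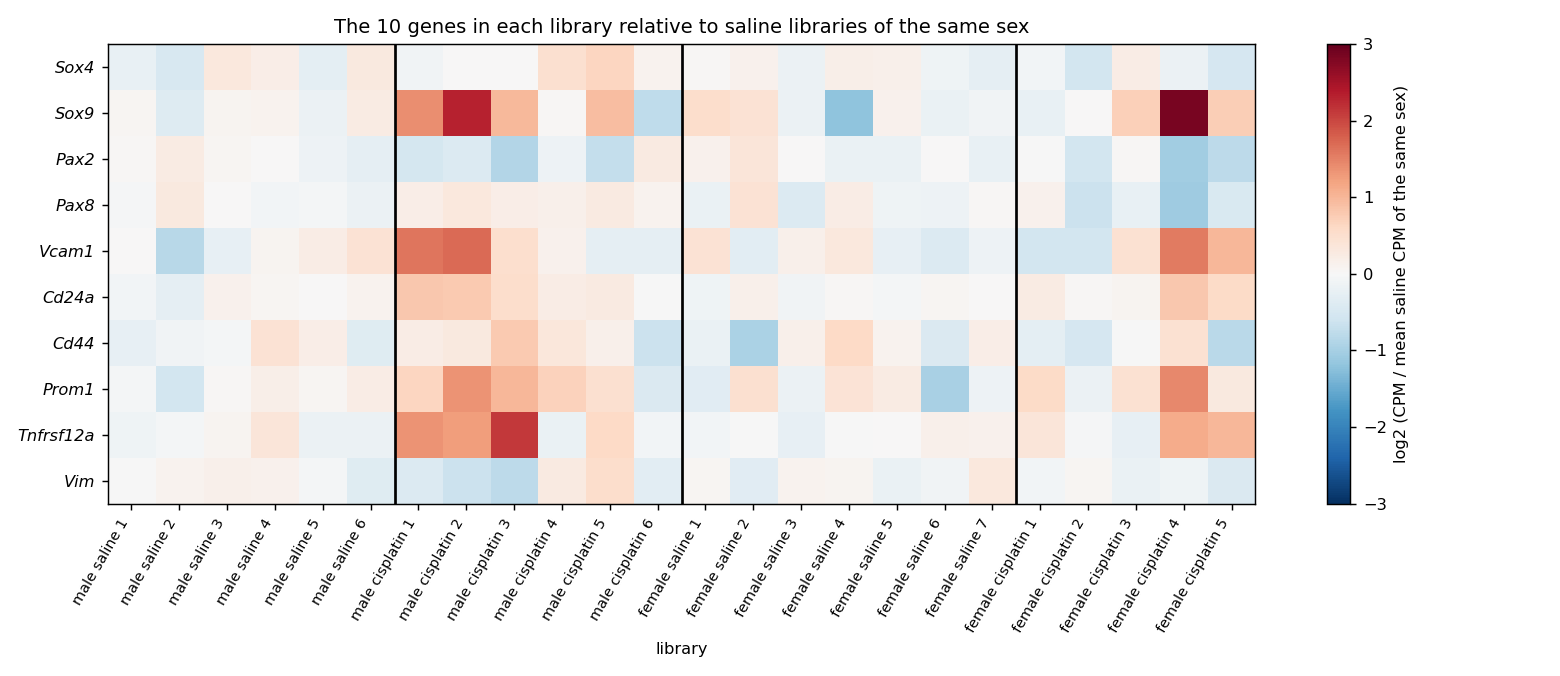
Log2 ratio of each gene's CPM to the mean of the saline libraries of the same sex, for all 24 libraries (columns, black lines between groups) and the 10 genes (rows); red is higher and blue is lower. Male cisplatin 1, 2 and 3 and female cisplatin 4 and 5 are red or pale red for Vcam1, Cd24a, Prom1 and Tnfrsf12a, and male cisplatin 6 is pale or blue in most rows.

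The genes whose log2 CPM was most like each of the 10 over the 24 libraries are given as a description, since these libraries share treatment and composition. Cd24a was most like Tsc22d1 and Cxadr (Pearson r = 0.96 for both). Pax2 was most like Col4a3 (0.94) and Tns3 (0.93), Prom1 like Il13ra1 (0.94) and Mgst1 (0.93), and Tnfrsf12a like Fbxo4 (0.92) and Crem (0.91). Vcam1 was most like Xdh (0.90) and Steap4 (0.89), and Vim like Klk8 (0.87) and Mboat2 (0.85). Sox9 was most like Coro1b (0.85) and H2-D1 (0.84), and Cd44 like Sptlc3 and Cers6 (0.74 for both). Nearest to Sox4 were Gm44432 (0.75) and 2310007B03Rik (0.74). The pattern of Pax8 was closest to AA986860 (0.82) and to Gm13415 (0.81), its own antisense neighbour.

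Other genes of the same pathways were counted from lists made with earlier results of these data known. In the TWEAK receptor pathway, which runs from the ligand through TRAF adaptors to the NF-kB factors, 5 of 12 genes rose in males and 0 fell, with a median log2 fold change of 0.24 (0.02 over all tested genes, 13.2% of which rose). Map3k14, the kinase of the non-canonical branch, rose from 33.8 ± 4.20 to 48.1 ± 6.04 CPM (SD, n = 6 each), at a log2 fold change of 0.51 ± 0.11 (edgeR adjusted p = 0.00447). Relb, the transcription factor of that branch, rose by 0.85 ± 0.21 (edgeR adjusted p = 0.00899), and Birc3, a ubiquitin ligase that restrains it, rose by 1.34 ± 0.35 (edgeR adjusted p = 0.0113). Birc3 missed the threshold with the tubule score in the model (0.108). In females 0 of 12 passed by edgeR, with a median of 0.16.

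Of 18 tested companions of the injured tubule state, 11 rose and 2 fell in males (median 0.69), and 2 rose and 0 fell in females (median 0.36). Of all tested genes, 13.2% rose and 7.54% fell in males, and 0.2% rose and 0.0722% fell in females. The 2 companions that fell in males were Dock10 (log2 fold change -1.18 ± 0.31, edgeR adjusted p = 0.0124) and Sema5a (-0.50 ± 0.17, 0.0456). Lcn2 went from 63.3 ± 4.20 to 2856 ± 2238 CPM in males, a log2 fold change of 5.50 ± 0.77 (edgeR adjusted p = 0.000117), and rose by 4.04 ± 0.68 in females (edgeR adjusted p = 0.00438). Spp1, which encodes osteopontin, rose by 2.36 ± 0.37 in males (edgeR adjusted p = 0.000424) and by 1.63 ± 0.36 in females (edgeR adjusted p = 0.0473). Dcdc2a, a doublecortin-domain gene, rose by 0.94 ± 0.14 in males (edgeR adjusted p = 0.00029) and had 0.36 ± 0.14 in females (0.262). The female calls were fragile: with only female libraries the edgeR adjusted p was 0.0524 for Lcn2 and 0.0604 for Spp1, with the replicate number as a block 0.199 and 0.28, and with the tubule score 0.0589 and 0.16. The female Spp1 call was also lost without any of the 7 female saline libraries (0.0805 to 0.115), without female cisplatin 4 (0.35) or 5 (0.218), without any of the 6 male saline libraries, male cisplatin 3 or male cisplatin 5 (0.0501 to 0.0672), and without the 3 libraries of uneven composition (0.131).

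Among 22 tested regulators of kidney development and progenitors, 4 rose and 1 fell in males (median 0.18), and 0 passed in females by edgeR. Of all tested genes, 13.2% rose and 7.54% fell in males, and 0.272% passed in females. Elf3, an epithelial ETS factor, rose from 170 ± 18.1 to 362 ± 114 CPM in males (log2 fold change 1.09 ± 0.20, edgeR adjusted p = 0.0013). Myc rose by 0.85 ± 0.24 (edgeR adjusted p = 0.0161, and 0.0714 with the tubule score). Sall1, a zinc finger factor of the nephron lineage, fell by 0.55 on the log2 scale (edgeR adjusted p = 0.0383), a call that was lost with the tubule score (0.201), without the 3 libraries of uneven composition (0.0755), and without any of male saline 1, 3, 4, 5 and 6 or male cisplatin 1, 2, 3 and 5 (0.0559 to 0.0834). For 8 targets and partners of PAX2 and PAX8, 0 passed in either sex by edgeR (medians -0.21 and -0.12). The most abundant, Cdh16, the kidney-specific cadherin gene, was at 2558 ± 234 CPM in male saline and 2289 ± 379 CPM in male cisplatin (log2 fold change -0.16 ± 0.16, edgeR adjusted p = 0.477).

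Of 16 tested genes linked to SOX9 and YAP, 1 rose and 1 fell in males (median -0.09), where 13.2% of all tested genes rose and 7.54% fell. In females 1 of 16 rose (median -0.02), where 0.2% of all tested genes rose. The riser in both sexes was Ccn2, a matricellular YAP target, at 1.72 ± 0.43 in males (edgeR adjusted p = 0.00904) and 2.11 ± 0.43 in females (0.0272). With the tubule score these were 0.0819 and 0.169, and with the replicate block the female value was 0.255. The female call was also lost with female libraries alone (0.113), without the 3 libraries of uneven composition (0.119), without female cisplatin 4 (0.252) or 5 (0.149), and without any of female saline 1, 2, 3, 4, 6 and 7 (0.0571 to 0.0679). Notch2 fell by 0.29 on the log2 scale in males (edgeR adjusted p = 0.0452), a call lost in 16 of 31 alternatives, among them the replicate block (0.0606), no filter (0.0963), the tubule score (0.0846), and leaving out any of male saline 1 to 5, male cisplatin 2 to 5 or female saline 3, 5 and 7 (0.0505 to 0.106).

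Of 14 tested genes around CD44 and hyaluronan, 3 rose and 3 fell in males (median 0.10). For this list and the next ones, 13.2% of all tested genes rose and 7.54% fell in males. Msn, the gene of the linker protein moesin, fell by 0.59 on the log2 scale (edgeR adjusted p = 0.00516). Adam10, a sheddase of CD44, rose by 0.51 ± 0.15 (edgeR adjusted p = 0.0192, and 0.167 with the tubule score), and Slc9a3r1, a scaffold that binds ezrin, rose by 0.36 ± 0.10 (0.0187, and 0.0924 with the tubule score). Both were also lost with male libraries alone (0.052 and 0.0573). Adam10 was lost without male cisplatin 1 (0.0561) or 2 (0.0523), and Slc9a3r1 without male cisplatin 2 (0.0515) or 3 (0.0539) and with no filter (0.0564). Of 8 VCAM1 partners and other adhesion receptors, 0 passed by edgeR in either sex (median -0.06 in males), and Itgb1, the most abundant, had a male log2 fold change of -0.28 ± 0.12 (edgeR adjusted p = 0.103). It passed with the replicate block (0.0494) and without male cisplatin 1 (0.0431) or 6 (0.0287). Of 19 vimentin partners and other cytoskeletal genes, 4 rose and 4 fell in males (median -0.17). Zeb2, a mesenchymal transcription factor, fell by 1.24 on the log2 scale (edgeR adjusted p = 0.00179), while Lmna, the lamin A/C gene, rose by 0.57 ± 0.13 (0.00614) and Actn1, an actin crosslinker gene, rose by 0.68 ± 0.17 (0.00782, and 0.0542 with the tubule score).

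**Figure D5:**
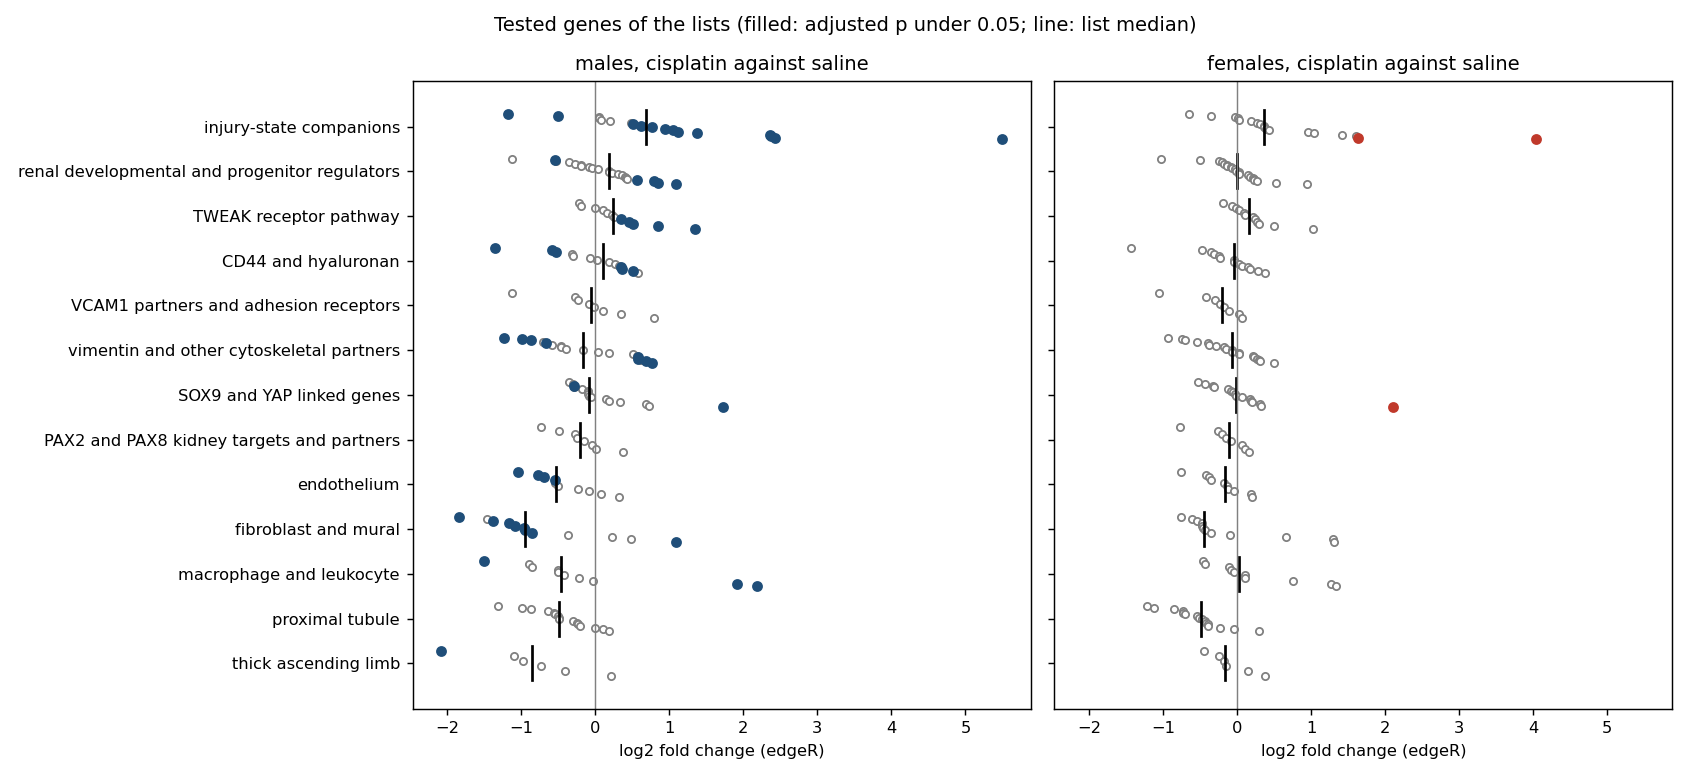
Log2 fold change (edgeR) of every tested gene of the lists shown, in males (left) and females (right). Each gene is 1 point, filled where the adjusted p was under 0.05, with a black line at each list's median. Injury-state companions have a median of 0.69 in males and 0.36 in females, and fibroblast and mural markers have a median of -0.96 in males.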

How the data were processed

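RNA-seq libraries from 24 mouse inner medulla samples were grouped by the labels' titles. The deposited values were the authors' raw counts per Ensembl gene identifier (whole numbers, not normalized). Per the submitters' processing notes, Trim Galore 0.6.7, Subread 2.0.1, featureCounts, DESeq2 1.28.1 and build mm10 were used, with no roles stated. The aligner, strand setting and annotation release were each not given in the sources used here. Symbols, lengths and coordinates of the 10 genes came from GENCODE M21 (GRCm38).

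Totals were 18084242 to 27279102 counts per library, and precision is limited at low-count genes. In R 4.3.3, edgeR 4.0.16 kept genes with filterByExpr (minimum count 10), scaled by TMM, and fitted a quasi-likelihood model with a mean for each of 4 groups to all 24 libraries. The p-values were adjusted (Benjamini-Hochberg) over 18005 genes, and 0.05 was the threshold. The replicate numbers did not pair libraries (median correlation of same-numbered libraries -0.012). Named genes were all 10, up to 3 passing genes per list by smallest male p (or the most abundant gene where none passed), the 2 genes most like each (log2 CPM, prior count 2), and genes named with their values where a result turned on them. Alternatives were DESeq2 1.42.0, no TMM, no filter, only the groups compared, a replicate block, a tubule marker covariate (proximal tubule and thick ascending limb), 3 libraries left out together, and each library left out. The scripts were checked on simulated counts with known changes. Members and lists were chosen with earlier results of these data known.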

Additional observations from a re-analysis of the deposited data

Results flagged for a closer look

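Each of the 10 genes was checked for a library far from the others in each of the 4 groups, 40 groups in all, of which chance marks about 1 in 20. In 2 of them a library stood apart. Sox9 in female cisplatin 4 was at 2.53 CPM, and the nearest other library was at 0.585 CPM, a gap of 0.87 of the group's range. Pax8 in male saline 2 was at 351 CPM, and the nearest was at 290 CPM, a gap of 0.63 of the range.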

How the results depend on the processing

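The male count of the 10 genes past the threshold (2) was 1 with only the male groups fitted, 1 with the replicate block, 0 with the tubule score as covariate, and 1 to 5 when single libraries were left out. Over all tested genes in males the count (3731) was 2402 with only the male groups and 2009 with the covariate. In females the count over all tested genes (49) was 85 with no filter, 20 with only the female groups, 16 with the replicate block, 25 with the covariate, 32 without the 3 libraries of uneven composition and 241 in DESeq2, and 21 to 139 when single libraries were left out. Alternative values were taken for all 10 genes for treatment in each sex. In the interaction they were taken only for Pax8, Sox4, Tnfrsf12a and Sox9, and between the sexes only for Pax8. Among these 801 values, 780 kept their direction and side of the threshold, 8 lost the call, 9 gained it and 4 changed sign. Only Cd24a and Tnfrsf12a in males had a call to lose, and it held in 25 and 29 of 31 alternatives. The changes of sign were Vim in males with the covariate (0.0046), Sox9 in the interaction (-0.72 to 0.64 over single libraries left out) and Pax8 between the sexes under cisplatin (-0.21 to 0.085). The cause was not tested. Same-numbered libraries did not deviate together (correlations -0.118 to 0.077 in males and -0.221 to -0.012 in females), and 0 of 6 and 0 of 5 cisplatin libraries correlated best with their own number. The block lost the male Cd24a call (adjusted p = 0.0516, edgeR) and no other call of the 10 genes. Sox9 had too few counts to be fitted in the fit of the male groups alone. Depth limits Sox9 and Cd44 most.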
